A study of Mus musculus with 22 samples.

Results

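Rad21, Smc3, Stag1, Nipbl, Pds5a and Pds5b encode subunits, the loader and regulators of cohesin, and these 6 genes were chosen by symbol from the mouse GENCODE vM1 annotation (mm9), which held 20455 protein-coding genes longer than 1 kb. RNA polymerase II (PolII) occupancy at them was read from 18 lists of ChIP-seq peaks, 1 list per library, as peaks that overlapped the gene plus 1 kb on either side. The question put to these lists was whether the loss of CTCF was met by a change of PolII at the genes of its partner complex.

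Cohesin is a ring-shaped complex that holds sister chromatids together from S phase to anaphase and extrudes chromatin loops in interphase. Smc3 and its partner Smc1a form the arms of the ring, the kleisin Rad21 closes it, and Stag1 or its paralog Stag2 binds Rad21. Nipbl, with Mau2, loads the ring onto DNA and stimulates loop extrusion, while Pds5a and Pds5b bind Rad21 and act with Wapl, encoded by Wapal, in the release of cohesin and with the Esco acetyltransferases in its protection. CTCF is the DNA-binding protein at which extruding cohesin stops, so that loop anchors in mammalian chromatin carry both.

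All libraries came from 1 line of G1E-ER4 cells, a murine GATA1-null erythroblast line that was kept uninduced, with both Ctcf alleles tagged by AID and mCherry and with OsTiR expressed from a retroviral vector. Every group, controls included, carried these alleles, was arrested in prometaphase with nocodazole and was purified by FACS. The untreated control cells were gated as mCherry positive and the auxin treated cells, which received auxin late in the arrest and after release, as mCherry negative. Prometaphase (0 min), early-G1 (60 min) and late-G1 (240 min) had 2 libraries without and 2 with auxin, and mid-G1 (120 min) had 3 and 3. The study describes these libraries as biological replicates, the labels do not say whether they came from separate cultures, and the p-values below measure the spread between them.

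Prometaphase lists held 2414 to 3918 peaks and post-mitotic lists 50594 to 117125. The mid-G1 control replicate 1 stood apart with the shortest post-mitotic list and the lowest recovered depth, 4.54 reads per kb against 7.53 to 13.3 in the other 13 post-mitotic libraries. Of 10 erythroid precursor genes, all 10 had a peak in each of the 14 post-mitotic lists, and of 12 genes that mark other cell types 9 had none in any of them. The exceptions were Csf1r, Gfap and Pax5. Csf1r, the receptor for a macrophage growth factor, had a peak in all 14, but over its 5′ end in 0. Gfap had a peak in 11, with 6 over its 5′ end, and Pax5 in 1.

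In mitosis Smc3 was the only one of the 6 genes with a PolII peak. It had a peak in all 4 prometaphase lists, where the other 5 genes had none. Its peak held rank 108 and 154 in the control lists and rank 169 and 199 in the auxin lists, counted from the peak with the highest fold enrichment over local background. The fold enrichment was 25.1 and 19.9 without auxin and 19.8 and 16.5 with auxin. Peaks in all 4 prometaphase lists were present at 4.77% of all protein-coding genes and in at least 1 list at 17.18%. Among 13 related genes chosen for the same pathway, 9 had a prometaphase peak in at least 1 list, but Mau2, the partner of Nipbl, was the one with a peak in all 4. A peak covered the 5′ end of Mau2 in all 4, and its window overlapped that of the protein-coding gene Sugp1. Stag2 and Ctcf had none.

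The mitotic peak of Smc3 did not cover the annotated 5′ end of the gene (chr19:53674886-53720323, plus strand, ENSMUSG00000024974.9). Its summits lay 455 and 389 bp upstream in the control lists and 516 and 431 bp upstream in the auxin lists. After mitosis the strongest peak of Smc3 kept its summit in the same stretch, 418 to 455 bp upstream in the 7 control libraries and 420 to 485 bp upstream in the 7 auxin libraries. The stretch is printed here because it held the mitotic and the post-mitotic summits. The capitals mark a match to a short pattern from the core of the CTCF motif, which was taken as CCA, AG and GGC in this order with 2 bases of any kind after CCA and after AG.
Smc3, mm9 chr19:53674326-53674525, plus strand: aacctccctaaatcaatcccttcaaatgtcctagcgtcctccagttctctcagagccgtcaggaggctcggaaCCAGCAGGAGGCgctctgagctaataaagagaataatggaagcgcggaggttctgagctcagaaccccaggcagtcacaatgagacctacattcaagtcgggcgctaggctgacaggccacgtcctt
The match began 487 bp before the 5′ end. Searched on both strands within 500 bp of the 5′ end, the same pattern was present at 7.5% of the 20455 genes and at 2 of the 6 cohesin genes, Smc3 and Rad21, where it began 133 bp upstream. These are matches of letters, and binding of CTCF was not measured in the lists used here.

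After mitosis all 6 genes had PolII peaks, with Smc3 at the top of the order and Pds5b at its end. Smc3 held rank 52 to 527 over the 14 post-mitotic lists and Stag1 rank 567 to 2845, so that these genes did not overlap. Pds5a followed with ranks from 1996 to 5758, Rad21 with 3627 to 7749 and Nipbl with 5751 to 12827, and each of these ranges overlapped with that of its neighbour. Pds5b ranged from 7819 to 37638 and had no peak in the mid-G1 control replicate 1. A peak in the gene window was present in all 14 lists for 5 of the 6 genes, against 47.4% of all genes. The plot of ranks by stage shows this order.

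**Figure D1:**
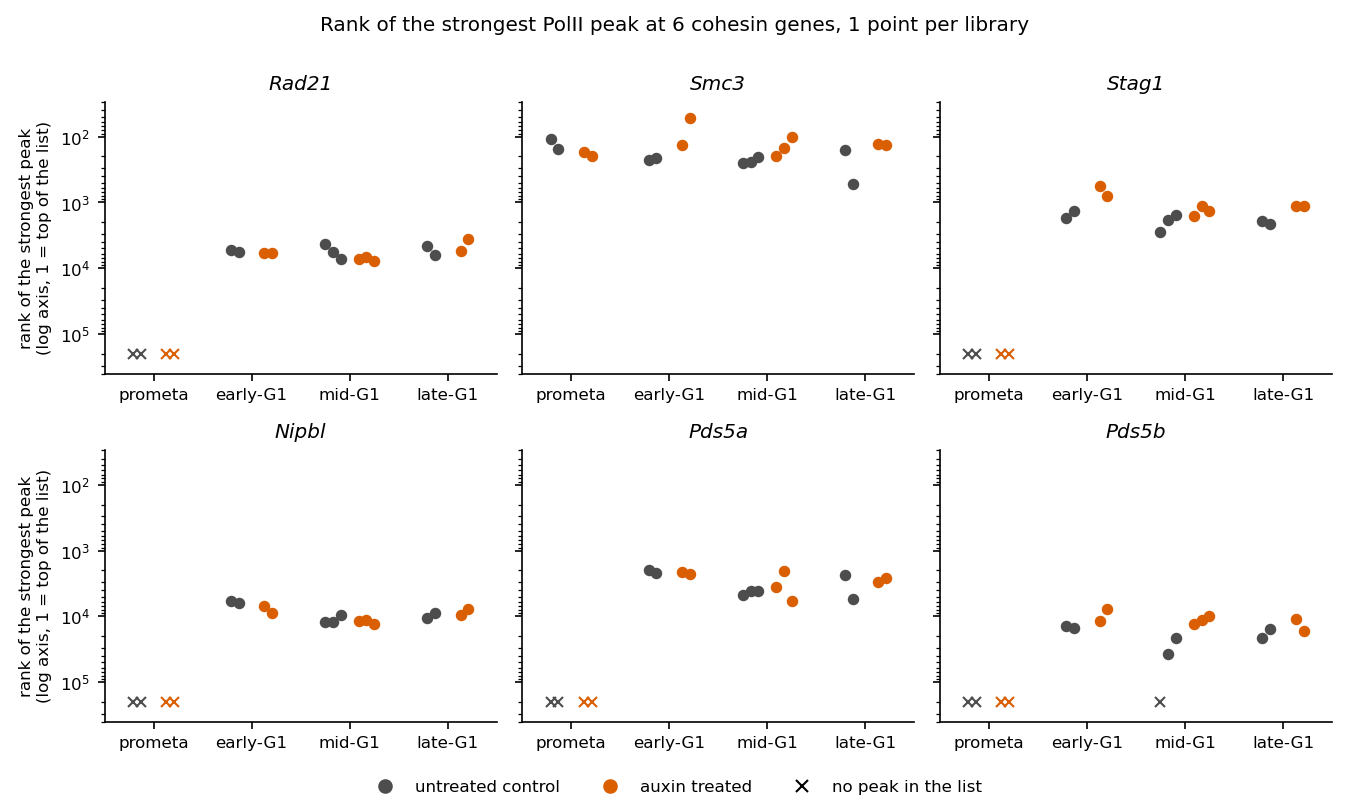
Rank of the strongest PolII peak in the window of each of the 6 genes, on a log axis with rank 1 at the top, by stage and treatment. Each point is 1 library and crosses mark lists with no peak in the window. Smc3 was present in all 4 prometaphase lists and held rank 527 or nearer the top throughout, and the other 5 genes appeared after mitosis. The prometaphase lists were much shorter, so that the Smc3 rank was 2.76% to 8.24% of their length. After mitosis it was 0.052% to 0.49% of the list length.

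Detection at the annotated 5′ end differed among the genes. Rad21 (chr15:51794151-51823306, minus strand, ENSMUSG00000022314.9) and Smc3 had a peak over the 5′ end in all 14 post-mitotic lists, as did 30.1% of all genes. Nipbl (chr15:8241225-8394463, minus strand, ENSMUSG00000022141.6) had one in 6 control and 5 auxin lists, and Pds5a (chr5:66006499-66089095, minus strand, ENSMUSG00000029202.8) in 4 control and 3 auxin lists. Within 500 bp of the 5′ end both had a peak in all 14. The summit of the strongest peak lay upstream of the annotated start in all 14 post-mitotic lists at Rad21 (212 to 290 bp, median 258 bp) and at Pds5a (541 to 833 bp, median 630.5 bp). At Nipbl it lay 247 to 418 bp upstream in 9 lists and 335 to 1517 bp downstream in the other 5, which were the early-G1 auxin replicate 2, the mid-G1 control replicates 1 and 2 and both late-G1 auxin libraries, with a median 304.5 bp upstream. A median upstream of the 5′ end was found for 37.5% of the 8316 genes with a peak near the 5′ end in at least 13 libraries.

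Stag1 (chr9:100498217-100858964, plus strand, ENSMUSG00000037286.8) had no peak at its annotated 5′ end in any of the 18 lists. Its strongest peak lay inside the gene, at a cluster of annotated transcript starts about 45.81 kb downstream, where 3 of its 17 annotated transcripts begin at position 100544032. A peak covered an annotated Stag1 start in all 14 post-mitotic lists. The summit of this peak took 1 of 2 positions. In all 7 control lists it lay 521 to 557 bp upstream of the internal start. In 5 of 7 auxin lists it lay 63 to 90 bp upstream, and in the other 2 auxin lists, mid-G1 replicate 1 and late-G1 replicate 2, at 516 and 545 bp. The 2 stretches are printed to show what lay at each position. The far one, of 120 bp, held no match to the CTCF pattern. The near one, of 200 bp, held 2, shown in capitals, which began 40 bp before and 18 bp after the internal start. The stretches thus differ in length, and the share of such matches at other internal starts was not counted.
Stag1 far position, mm9 chr9:100543432-100543551, plus strand: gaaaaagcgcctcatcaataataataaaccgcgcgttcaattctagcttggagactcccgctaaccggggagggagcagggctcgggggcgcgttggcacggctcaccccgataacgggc
Stag1 near position, mm9 chr9:100543912-100544111, plus strand: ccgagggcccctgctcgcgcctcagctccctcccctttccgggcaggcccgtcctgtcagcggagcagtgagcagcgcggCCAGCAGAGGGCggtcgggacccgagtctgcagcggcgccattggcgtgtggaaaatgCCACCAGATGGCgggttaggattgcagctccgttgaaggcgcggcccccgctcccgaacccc
The position of the Stag1 summit was noticed in these lists, so it was given no test.

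Pds5b (chr5:151476314-151613265, plus strand, ENSMUSG00000034021.9) differed between the lists with and without auxin in where its peak lay at the 5′ end. A peak covered the 5′ end in all 7 auxin lists and in 3 of 7 control lists. In the control lists the summit of the strongest peak was 277 bp downstream and 229 bp upstream in early-G1, 209 and 285 bp upstream in the mid-G1 replicates with a peak, and 222 and 240 bp downstream in late-G1. With auxin it was within 82 bp of the 5′ end in every library, at -58 and 1 bp in early-G1, at -82, -52 and -53 bp in mid-G1 and at 10 and -37 bp in late-G1. The distances of 209 to 285 bp without auxin and 1 to 82 bp with auxin did not overlap. Such a separation was present at 0.337% of the 8316 genes (28 genes). Pds5b was singled out after its values were seen, so no test is given. The stretch is printed because the auxin summits lay in it, with transcribed bases in capitals from the annotated 5′ end onward.
Pds5b, mm9 chr5:151476064-151476363, plus strand: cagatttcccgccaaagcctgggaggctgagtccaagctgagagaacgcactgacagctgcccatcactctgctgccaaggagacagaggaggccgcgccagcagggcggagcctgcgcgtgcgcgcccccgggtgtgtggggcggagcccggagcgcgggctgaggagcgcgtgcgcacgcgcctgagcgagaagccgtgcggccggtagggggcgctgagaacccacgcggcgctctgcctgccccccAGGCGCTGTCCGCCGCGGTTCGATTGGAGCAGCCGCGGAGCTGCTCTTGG
No exact match to the CTCF pattern was found within 500 bp of the 5′ end of Pds5b, Pds5a, Nipbl or Stag1. Sites with other letters were not counted. The Pds5b stretch above holds ccggtagggggc, which departs from the pattern only by a G for the A of CCA.

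**Figure D2:**
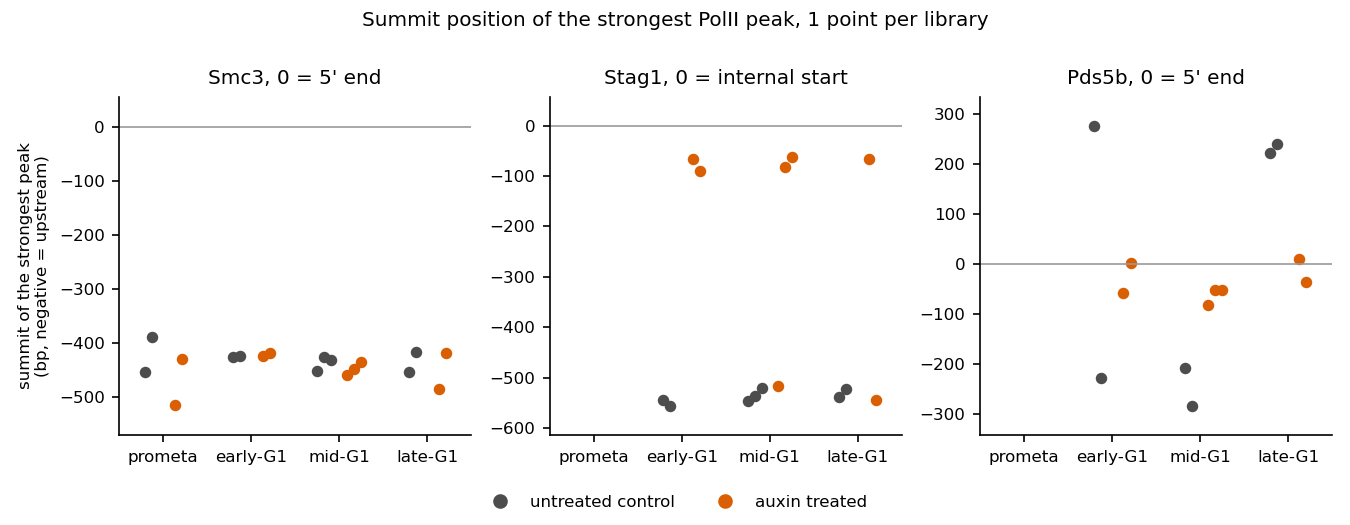
Position of the summit of the strongest peak, in bp from the annotated 5′ end (Smc3 and Pds5b) or from the internal start (Stag1), by stage and treatment, with 1 point per library and negative values upstream. The Smc3 summits stayed between 389 and 516 bp upstream, the Stag1 summits fell at 2 positions, and the Pds5b summits of auxin treated cells all lay within 82 bp of the 5′ end.

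Auxin treatment was not accompanied by a called change in peak rank at the cohesin genes. The rank was compared as its negative log2, on which an increase of 1 means a rank 2 times nearer the top of the list, with limma over the 14 post-mitotic libraries and the average of the 3 stages. Of the 5 genes with a peak in all 14 libraries, 0 passed at a Benjamini-Hochberg adjusted p of 0.05, against 0.867% of the 9689 genes tested (84 genes), and 2 of the 5, Smc3 and Stag1, had an unadjusted p below 0.05, as did 9.72% of all genes tested.

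The ring subunit Smc3 had ranks of 224 and 209 in early-G1, 248, 239 and 206 in mid-G1 and 159 and 527 in late-G1 without auxin. With auxin its ranks were 133 and 52, then 199, 149 and 103, and then 129 and 135. The auxin libraries lay nearer the top within each stage, but the share of all genes that separate in this way was not counted. Over all stages the groups overlapped, since the late-G1 control replicate 2 lay among the auxin libraries. The difference was 1.06 ± 0.29 (SE), with a 95% confidence interval of 0.44 to 1.68 and an adjusted p of 0.136 in limma. Without the late-G1 control replicate 2 it was 1.35 with an adjusted p of 0.0129, and without the late-G1 control replicate 3, which had the rank of 527, it was 0.77.

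The Stag1 ranks without auxin were 1696 and 1368 in early-G1, 2845, 1847 and 1573 in mid-G1 and 1893 and 2095 in late-G1. With auxin they were 567 and 805, then 1602, 1124 and 1338, and then 1139 and 1145. Within early-G1 and late-G1 every auxin library lay nearer the top than both controls, and in mid-G1 the groups overlapped. For this separation too the share of all genes was not counted. The difference was 0.86 ± 0.20 (SE; 95% confidence interval 0.42 to 1.29), with an adjusted p of 0.0706 in limma. It passed in 2 of 23 alternatives. With depth as a covariate it was 0.95 with an adjusted p of 0.0350. Without the mid-G1 control replicate 3 it was 0.92 with an adjusted p of 0.0460. In the other alternatives the difference kept its direction but did not pass, with an adjusted p of up to 0.9998 in limma.

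Rad21, Nipbl and Pds5a showed smaller differences. For the kleisin Rad21 the ranks ran from 4318 through a median of 5559 to 7300 without auxin and from 3627 through 5923 to 7749 with it, and the difference was -0.07 ± 0.20 (SE; 95% confidence interval -0.49 to 0.35, adjusted p = 0.943 in limma). The loader gene Nipbl ran from 5751 through 9576 to 12245 without auxin and from 6894 through 9436 to 12827 with it, a difference of -0.09 ± 0.18 (SE; 95% confidence interval -0.48 to 0.29, adjusted p = 0.911 in limma). The regulator Pds5a ran from 1996 through 4045 to 5361 without auxin and from 2056 through 2635 to 5758 with it, a difference of 0.19 ± 0.25 (SE; 95% confidence interval -0.34 to 0.73, adjusted p = 0.855 in limma). For each of these 3 genes the control and auxin ranges overlapped over most of their length. The intervals include differences in both directions and do not show that PolII at these genes was alike in both conditions.

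Pds5b had ranks of 13848 and 14737 in early-G1, 37638 and 21402 in 2 mid-G1 replicates and 21415 and 15295 in late-G1 without auxin. With auxin the ranks were 11705 and 7819, then 12817, 11335 and 9861, and then 10932 and 16597. Here the auxin libraries lay nearer the top throughout early-G1 and mid-G1 and the groups overlapped in late-G1, again with no share of all genes counted. With the missing peak placed at the end of its list, the difference was 0.87 ± 0.24 (SE) with an adjusted p of 0.124 in limma, and 0.78 with an adjusted p of 0.156 without the mid-G1 control replicate 1.

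For peaks over the annotated 5′ end, 0 of the 2 genes tested, Rad21 and Smc3, passed for auxin, against 0.699% of 6152 genes, with 0 at an unadjusted p below 0.05 against 8.18%. With missing peaks placed at the end of their lists, Pds5b passed, at 1.82 ± 0.31 (SE) and an adjusted p of 0.0230 in limma. All 4 of its missing peaks were in control lists, so this value depends on the place given to them. With peaks within 500 bp counted and the missing peak placed last it was 0.87 with an adjusted p of 0.148.

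**Figure D3:**
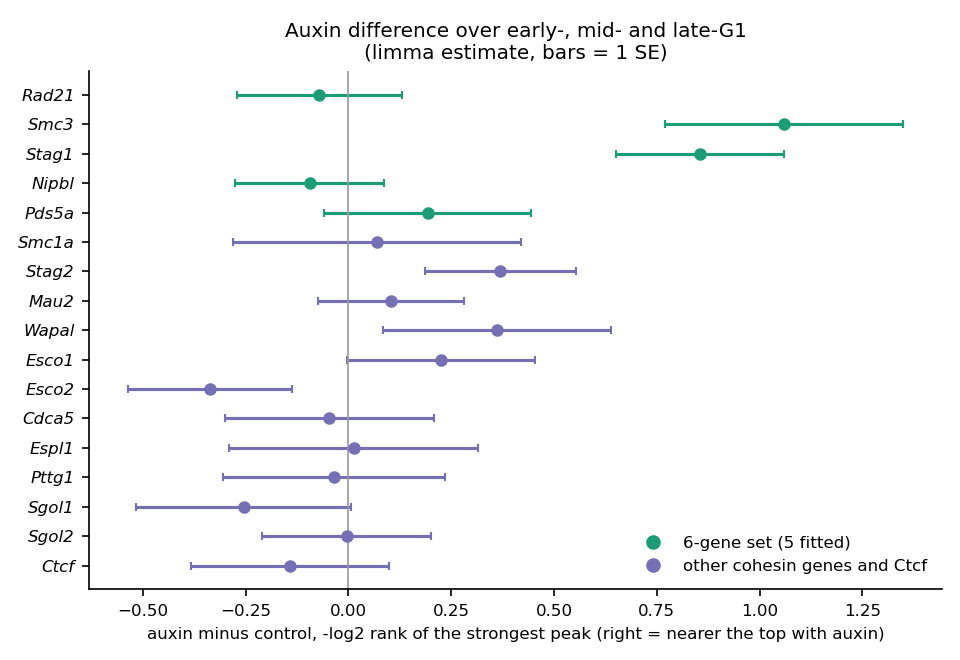
Difference between auxin treated and untreated libraries in the negative log2 rank of the strongest peak, averaged over early-, mid- and late-G1, for the 5 cohesin genes with a peak in all 14 post-mitotic lists and for 12 related genes. Points are limma estimates and bars are 1 SE, and Smc3 at 1.06 and Stag1 at 0.86 lay farthest to the right without passing the adjusted threshold.

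Within single stages 0 of 5 genes passed for auxin in early-G1 (background 0.0929%), in mid-G1 (0.217%) and in late-G1 (0.258%). At an unadjusted p below 0.05 there were 2 of 5 in early-G1 (background 4.03%), 0 in mid-G1 (9.05%) and 2 in late-G1 (8.89%). The early-G1 difference was 1.38 ± 0.53 (SE, adjusted p = 0.911 in limma) for Smc3 and 1.17 ± 0.38 (SE, adjusted p = 0.713 in limma) for Stag1. A test of whether the auxin difference varied among the 3 stages called 0 of 5 genes, against 0.0206% of all genes, with 0 at an unadjusted p below 0.05 against 4.82%.

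The related genes gave a similar count. Of the 13 genes of the wider pathway, 12 were tested and 0 passed for auxin, with a median difference of 0.00 (log2 rank), against 0.19 for the 5 cohesin genes and 0.01 for all genes. Smc1a, which pairs with Smc3, differed by 0.07 ± 0.35 (SE), and Stag2, the paralog of Stag1, by 0.37 ± 0.18 (SE). Mau2 differed by 0.10 ± 0.18 (SE) and Wapal by 0.36 ± 0.28 (SE). Ctcf itself, whose protein and not whose gene is removed by auxin, differed by -0.14 ± 0.24 (SE). The adjusted p of these 5 genes ran from 0.549 for Stag2 to 0.974 for Smc1a in limma.

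Changes that passed the test at the cohesin genes were found with time after mitosis, in gene-body coverage. Gene-body coverage is the percentage of bases from 500 bp after the 5′ end to the gene end that lay in a peak. Between early-G1 and late-G1 the difference in coverage was negative at all 6 genes, and the fall passed the test at 5 of them. The count of genes that passed was 3 with no filter on coverage, where a fall passed at 3.75% of 20455 genes. With 1 library left out the count ran from 2 to 6. It was 2 without early-G1 auxin replicate 2 or late-G1 auxin replicate 2, and 3 without early-G1 control replicate 2, early-G1 auxin replicate 1, mid-G1 auxin replicate 1, late-G1 control replicate 2 or late-G1 auxin replicate 1. In the same comparison 15.5% of the 8789 genes tested passed in either direction and 11.8% were lower in late-G1, and the median difference was -16.93 percentage points for the 6 genes and -1.23 for all genes.

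Smc3 was covered over 63.6% and 70.0% of its body in the early-G1 control libraries and over 59.5% and 50.3% with auxin, and over 21.8% and 38.3% and over 21.5% and 14.8% in late-G1. Early-G1 and late-G1 did not overlap, and coverage fell by 36.7 ± 5.2 percentage points (SE, adjusted p = 0.00267 in limma). Nipbl was covered over 18.9% and 21.9% without and 11.4% and 8.75% with auxin in early-G1, and over 3.79%, 3.73%, 2.90% and 2.32% in late-G1. Its coverage fell by 12.1 ± 1.4 percentage points (SE, adjusted p = 0.000982 in limma).

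Rad21 coverage was 55.6% and 66.1% without and 51.3% and 47.3% with auxin in early-G1, and 38.8%, 48.2%, 26.0% and 20.1% in late-G1. The late-G1 control replicate 3 overlapped with the early-G1 auxin libraries. The fall was 21.8 ± 5.6 percentage points (SE, adjusted p = 0.0312 in limma). Of the 14 fits that left out 1 library 7 kept the call. It was lost, with an adjusted p of 0.0518 to 0.114, without any of the late-G1 control replicate 2, the early-G1 control replicate 2, the mid-G1 auxin replicate 1 or any early-G1 or late-G1 auxin library.

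For Pds5a the values were 65.1% and 70.2% without and 53.0% and 44.7% with auxin in early-G1, and 24.7%, 35.1%, 28.8% and 20.6% in late-G1, and these did not overlap. The fall of 31.0 ± 8.9 percentage points (SE, adjusted p = 0.0460 in limma) was kept in 4 of 14 such fits, without the mid-G1 control replicates 1 or 2 or the mid-G1 auxin replicates 2 or 3, and was lost in the others with an adjusted p of 0.0616 to 0.143. Pds5b was sparsely covered throughout, over 6.59%, 4.59%, 2.77% and 2.88% in early-G1 and 0.574%, 0.780%, 0.914% and 0.363% in late-G1, and fell by 3.55 ± 0.72 percentage points (SE, adjusted p = 0.0136 in limma). This call was lost without the early-G1 auxin replicate 2 (adjusted p = 0.0519) or the late-G1 auxin replicate 2 (0.0599). Stag1 was the gene that did not pass, with 4.45%, 5.00%, 5.38% and 4.13% in early-G1 and 0.939%, 1.09%, 3.10% and 1.79% in late-G1. Its stages did not overlap either. The difference was -3.01 ± 1.42 percentage points (SE, adjusted p = 0.181 in limma). It passed in 1 of 21 alternatives, without the mid-G1 auxin replicate 3 (adjusted p = 0.0476).

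Coverage follows how much of the genome was called in peaks. The early-G1 lists covered 56.8 to 73.3 Mb and the late-G1 lists 42.1 to 70.2 Mb. After quantile normalization of coverage over genes a fall passed at 5 of the 6 genes, against 15.2% of all genes. For the rank of the strongest peak 0 of 5 genes passed between early-G1 and late-G1, against 13.3% of all genes, with 1 (Stag1, -0.57 ± 0.27 SE) at an unadjusted p below 0.05 against 27.5%. The direction was that of coverage at 4 of the 5 genes (all but Rad21), whose ranks were farther from the top in late-G1, and the median difference was -0.54 in negative log2 rank against 0.00 for all genes. Of the wider pathway, 10 of 13 genes were tested for coverage, and 2 passed as lower and 1 as higher in late-G1. Smc1a fell by 9.39 ± 1.77 and Stag2 by 19.1 ± 2.4 percentage points (SE, adjusted p = 0.00943 and 0.00160 in limma), while Ctcf (-22.91 ± 8.36), Wapal (-15.62 ± 5.67) and Mau2 (-9.15 ± 3.39) did not pass.

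**Figure D4:**
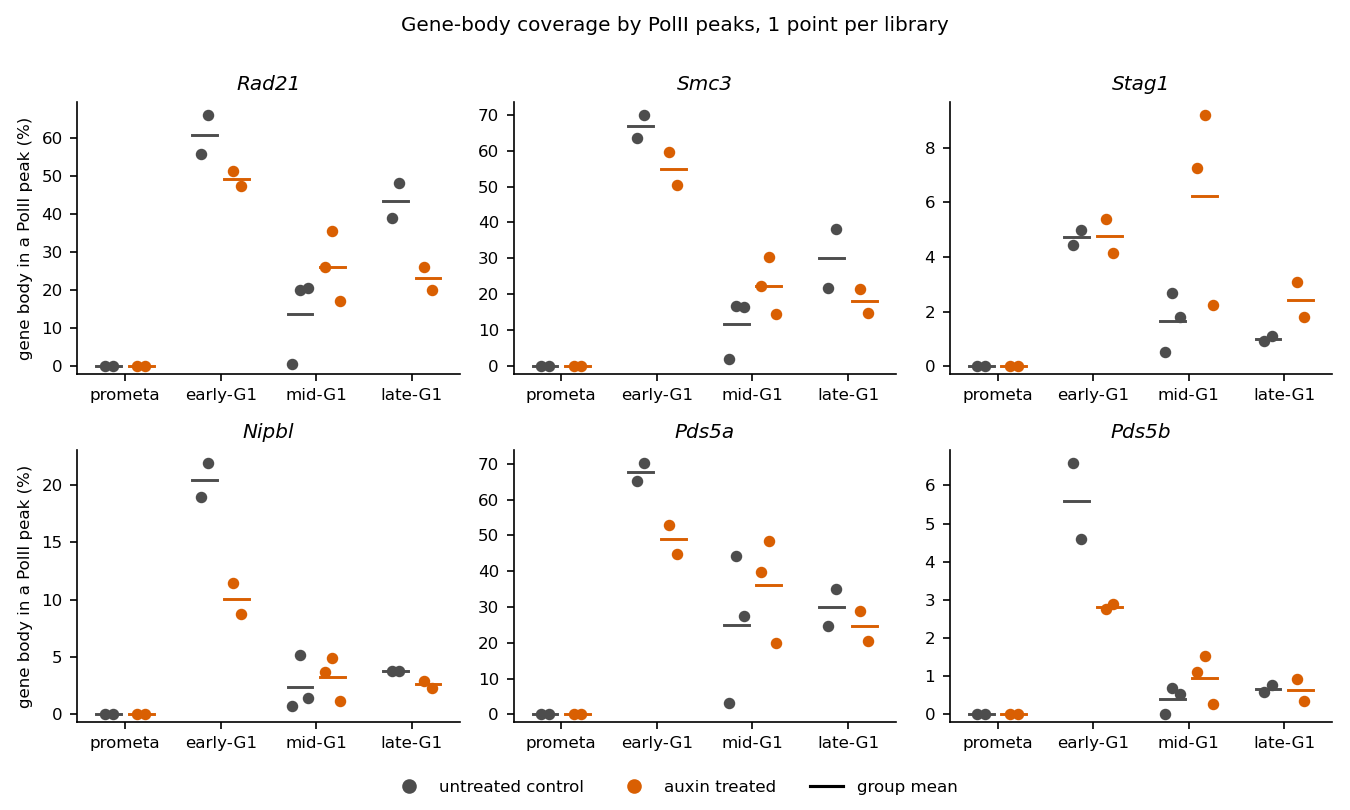
Percentage of each gene body in PolII peaks by stage and treatment, with 1 point per library, bars at the group mean and an axis of its own for each gene. Coverage was 0 in prometaphase, highest in early-G1 at 5 of the 6 genes and lower in late-G1, and the mid-G1 control replicate 1 was the lowest post-mitotic library at each gene.

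For auxin, 0 of 6 genes passed in gene-body coverage over the 3 stages, against 0.0228% of 8789 genes (2 genes), with 1 of the 6, Nipbl, at an unadjusted p below 0.05 against 8.29%. The Nipbl difference was -3.54 ± 1.04 percentage points (SE; 95% confidence interval -5.90 to -1.19, adjusted p = 0.516 in limma), and Stag1 alone was higher with auxin, by 2.01 ± 1.09 percentage points (SE, adjusted p = 0.621 in limma). In early-G1 both auxin libraries lay below both control libraries at 5 of the 6 genes, all but Stag1, and at 46.3% of the 8789 genes. The early-G1 auxin lists also covered less of the genome, 56.8 and 57.1 Mb against 66.7 and 73.3 Mb, and the part of this in the difference was not tested.

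Along the gene body, Stag1 was covered in early-G1 only as far as its proximal part. In successive steps of 50 kb from 500 bp after the internal start, the early-G1 control libraries were covered over 8.75% to 11.7%, 9.87% to 13.1% and 4.97% to 9.26% in the steps up to 150 kb. In the next step, from 150 to 200 kb, they were covered over 0% and 0.352%, and beyond it over 0%. The early-G1 auxin libraries gave 17.0% to 18.2%, 6.22% to 11.9% and 2.62% to 5.18% up to 150 kb and 0% in all steps beyond. The gene runs on for 314.9 kb after the internal start.

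In mid-G1, coverage of Stag1 reached the distal steps in both conditions. The mid-G1 auxin libraries were covered over 2.66% to 11.2% from 150 to 200 kb and over 0.332% to 8.98% from 250 to 300 kb, and the controls over 0% to 2.22% and 0.412% to 3.05%. In late-G1 the controls were at 0% in the steps from 50 to 150 kb, while the auxin libraries held 1.43% to 4.54% and 1.62% to 2.77% there. The share of covered bases beyond the midpoint of the annotated gene body was 4.84% and 2.01% in the early-G1 controls and 0% in both early-G1 auxin libraries. The mid-G1 controls gave 10.8%, 45.4% and 31.1% and the mid-G1 auxin libraries 50.3%, 47.7% and 21.1%, so that the conditions overlapped. In late-G1 it was 16.1% and 11.5% in the controls, below 2 of the 3 mid-G1 controls, and 35.0% and 27.5% with auxin. The late-G1 share exceeded the early-G1 share by 20.8 ± 8.2 percentage points (SE, adjusted p = 0.186 in limma), which did not pass. It passed in 1 of 19 alternatives, after quantile normalization, with an adjusted p of 0.0262. For this share 0 of 4 genes passed, against 7.75% of 3264 genes.

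At Smc3, Rad21 and Pds5a coverage ran through to the last of 20 equal bins of the gene body in all 4 early-G1 libraries. At Nipbl both controls were covered in the last 3 bins, whereas the auxin libraries were at 0% there except for 2.29% of 1 bin in replicate 2. At Pds5b the control replicate 1 was covered in each of these 3 bins and the other 3 early-G1 libraries were at 0%. The distal share in early-G1 was 59.2% and 57.4% in the controls and 57.0% and 55.4% with auxin at Smc3. At Rad21 it was 58.5% and 59.2% in the controls and 54.0% and 60.5% with auxin. At Nipbl it was 56.1% and 54.6% in the early-G1 controls and 37.1% and 36.3% with auxin, and at Pds5a 49.2% and 47.1% against 41.7% and 38.2%. At Pds5b it was 30.4% and 21.9% in the controls and 33.5% and 29.5% with auxin. Both early-G1 auxin libraries lay below both controls at all 4 genes tested for this share (Smc3, Stag1, Nipbl and Pds5a), against 19.8% of 3264 genes. No test was fixed for this contrast. The early-G1 auxin lists covered less of the genome, 57.1 and 56.8 Mb against 66.7 and 73.3 Mb in the controls. The part of this in the distal share was not tested. At Rad21 and Pds5b, which had too few covered bases in some list to be tested, the conditions overlapped. The heatmaps of coverage along the genes show these profiles.

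**Figure D5:**
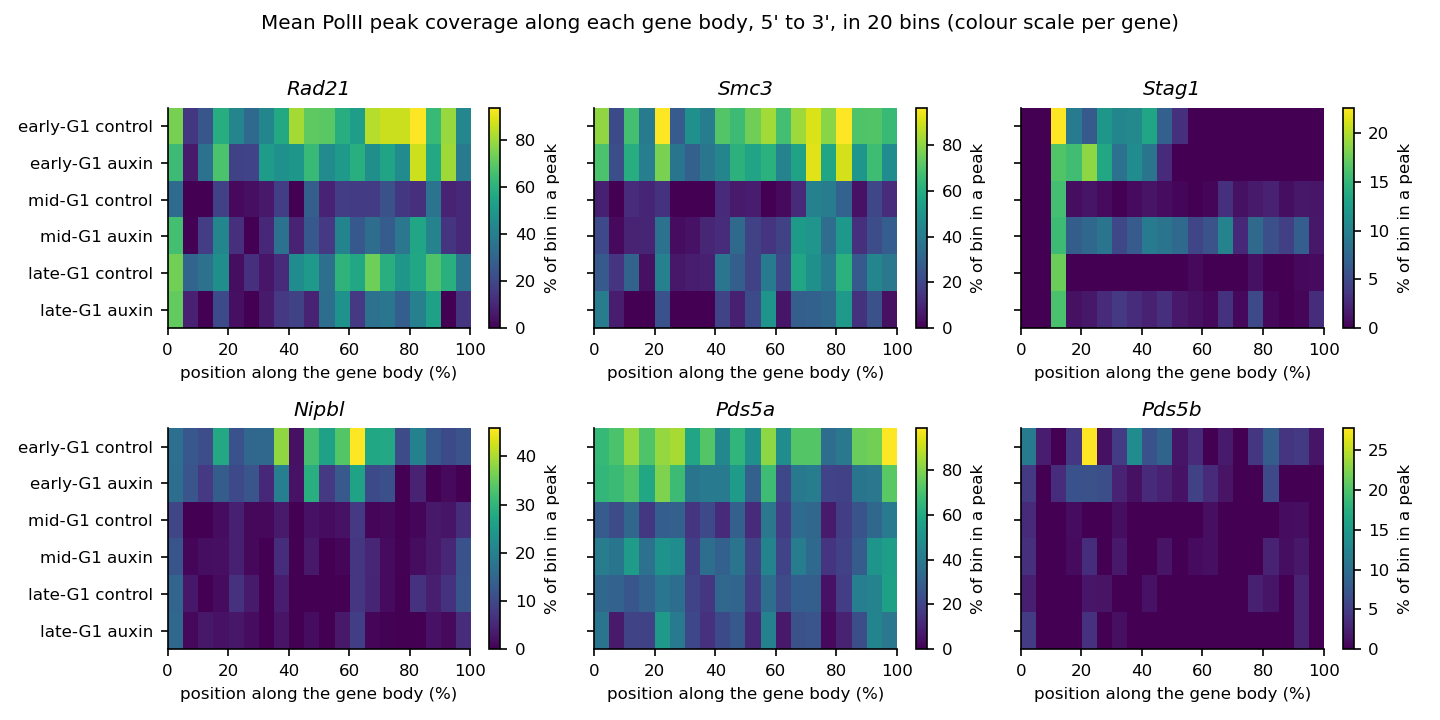
Mean percentage of each of 20 equal bins of the gene body in a PolII peak, 5′ to 3′ from left to right, for the 6 post-mitotic groups, with a colour scale of its own for each gene. At Stag1 the signal began in the third bin, at the internal start, and in both early-G1 groups ended near its middle, whereas at Rad21, Smc3 and Pds5a it reached the 3′ end in every group.

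The 7 auxin libraries lay nearer the top than all 7 controls at 0 of the 5 cohesin genes with a peak in all 14 lists, against 0.33% of 9689 genes. Across the 14 libraries the rank of Nipbl moved most like that of Etaa1 (Pearson r = 0.931) and Tsen15 (0.925), and Rad21 like 2310061C15Rik (0.873) and Elmod3 (0.863). Smc3 was closest to Syncrip (0.856) and Eif4a1 (0.833), Stag1 to Fam160b2 (0.858) and Btrc (0.854), and Pds5a to Ctse (0.847) and Psmb1 (0.843). Pds5b, over the 13 libraries with a peak, was closest to Fchsd2 (0.949) and Vps18 (0.88). These are the highest of 9689 correlations per gene (10103 for Pds5b) over libraries that share their depth and list length, and are given as a description. No other protein-coding gene overlapped the window of a member, which held a pseudogene at Stag1 (Gm8661), U6 at Pds5a and Pds5b and SNORA17 at Pds5b. The windows of the related genes Mau2 and Smc1a overlapped those of protein-coding Sugp1 and Ribc1, so their ranks may include peaks of these neighbours.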

How the data were processed

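Per the labels and the study's methods, reads were aligned by the authors to mm9 with Bowtie2 (2.2.9) in local mode, filtered with SAMtools (0.1.19) and bedtools (2.27.1), and peaks were called per library with MACS2 (2.1.0) against the input of the same stage. The deposited lists give each peak's fold enrichment over local background (a linear ratio), its −log10 p-value and −log10 q-value, its summit and a score. The 4 input samples entered only through that calling. Peaks were ranked within a list by fold enrichment, so a rank is comparable between lists only as an order. Relative depth was recovered from the deposited values, in which every pileup solved for came out within 0.02 of a whole number of reads. The peaks with the most extreme p-values, 0 to 742 per list, were not solved for.

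Genes, starts and windows came from GENCODE vM1, and sequences from the mm9 genome. The read-count test of the study could not be run on peak lists, so negative log2 ranks, gene-body coverage (genes with a mean of at least 1%) and distal shares (genes longer than 10 kb with at least 500 covered bases in every list) were fitted with limma (3.58.1, R 4.3.3) as 6 group means over all genes tested, with Benjamini-Hochberg adjustment at 0.05. Prometaphase lists, which were short, were described without a test. The fit was tested on simulated data, where 88.5% of 200 genes shifted by 1.5 in negative log2 rank for auxin, more than any of the 5 fitted members differed over the 3 stages, were recovered among 9689 genes, and 59.0% of 200 genes shifted by 15 percentage points in coverage among 8789. Described in full were the 6 members, by counts the related lists, and by values Smc1a, Stag2, Mau2, Wapal and Ctcf. Members and lists were chosen with earlier results of these data known. Alternatives were stricter peaks (−log10 q of at least 5), other overlaps and windows, other scales and normalization, a depth covariate, a replicate block and leaving out each library. A peak over any annotated start, and a start window of 500 bp with missing peaks placed last, were added after the data were seen.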

Additional observations from a re-analysis of the deposited data

Results flagged for a closer look

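The distal share of Stag1 coverage moved in opposite directions in 2 stages. In early-G1 both auxin libraries lay below both controls, with a difference of means of -3.43 percentage points, and in late-G1 both lay above, with a difference of 17.4 percentage points. For Mau2 gene-body coverage all 3 auxin libraries lay above the controls in mid-G1, by 10.99 percentage points, and both lay below them in late-G1, by a difference of -10.02 percentage points. The mid-G1 controls of Mau2 include the shallow replicate 1. In neither gene was the difference between the stages tested. Both were picked by a search of rank, coverage and distal share at the described genes for such opposite moves. The share of all genes with such moves was not counted. In early-G1 alone, the distal share was lower in both auxin libraries than in both controls at 19.8% of 3264 genes. No PolII group had 4 or more libraries, so single libraries were not screened as outliers.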

How the results depend on the processing

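Of the alternatives to the counts of cohesin genes called, 211 left the count within 1.5 times and 14 did not. Most of these counts were 0 in the main fit, and a count that stayed at 0 was taken as unchanged. The total of 211 therefore does not measure how stable a call was. For auxin and rank the count was 0, and it was 1 with the depth covariate and 0 to 1 when 1 library was left out. For rank at the 5′ end it became 1 with missing peaks placed last. For coverage between early-G1 and late-G1 it was 5, and it was 3 with no coverage filter, 2 to 6 when 1 library was left out and 0 with the replicate block. For the distal share it was 0, and 1 after quantile normalization. A fit without 1 library of a group of 2 assumes that the remaining library varies like the other groups.

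Same-numbered libraries of a stage correlated in their deviations from 0.034 to 0.267, with 4 of the 6 pairs under 0.1, so the numbers were not taken as pairs. In mid-G1 5 of 6 libraries correlated best with the library of their own number, a hint from the data only. In late-G1 only replicate 2 had a library in both conditions. A replicate block therefore rests the late-G1 means on replicate 2, so its contrast over time differs from that of the main fit. With the replicate block the auxin count over all genes was 52 against 84 for rank, and the coverage count over time 0 against 1363.

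Directions turned in 15 alternatives, for differences that did not pass. Rad21 for auxin ranged from -0.17 to 0.030 when 1 library was left out, both for the strongest peak and at the 5′ end, and its rank over time became -0.0042 on normal scores. Nipbl for auxin became 0.25 for the gene without flanks and 0.0027 with the block, and Pds5a ranged from -0.0023 to 0.39 when 1 library was left out. Coverage for auxin became 0.48 (Rad21), 1.76 (Smc3) and 1.91 (Pds5a) after quantile normalization, and 0.18 for Pds5a with the depth covariate. The distal share became -3.87 with the depth covariate and -9.44 with stricter peaks for Nipbl, and -1.05 for Pds5a with the block. The cause of these changes was not tested. On normal scores 13 genes in all passed for auxin and rank, against 84. Peaks at the 5′ end numbered 56 of 84 pairs of gene and library, 69 within 500 bp, 56 among stricter peaks and 71 at any annotated start. A peak list holds presence above a threshold, so a gene without a peak in a short list was not detectable at that depth rather than free of PolII.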

Other observations

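Condensin and Smc5/6 genes, which encode the other SMC complexes, were all occupied after mitosis. All 10 had a peak in each of the 14 post-mitotic lists, against 47.4% of all genes. Of these, 3 (Smc4, Ncapd2 and Ncapg) had one in all 4 prometaphase lists, against 4.77% of all genes. A fall in coverage between early-G1 and late-G1 passed at 4 of 10, against 11.8% of all genes tested. The median difference was -11.57 percentage points, against -1.23 for all genes. For auxin in rank 0 of 10 passed, against 0.867% of all genes tested. Of the 4 meiotic cohesin genes, Smc1b, Rad21l and Stag3 had no peak in any post-mitotic list, while Rec8 had a peak in its window in all 14.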
